A study of Homo sapiens with 9 samples.

Results

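Long noncoding RNAs and the host genes of small nucleolar RNAs were examined in the newly made and the total RNA of MCF10A, a line of non-transformed epithelial cells from the human breast. The genes were those whose RefSeq identifiers all begin with NR_, the prefix of noncoding transcripts, and which had a mean of 5 CPM or more over the 3 libraries without 4-thiouridine (4sU). This gave 190 of the 25801 genes to which identifiers of the table could be matched, while 6723 further NR_ genes lay below the minimum and 145 NR_ identifiers above it matched no gene and were not counted. By name they were 17 snoRNA host genes (SNHG genes, GAS5 and ZFAS1), 7 microRNA host genes, 34 antisense, divergent, intronic or overlapping transcripts (names ending in AS, DT, IT or OT), 16 LINC genes, 27 other long noncoding RNAs, 49 pseudogenes, 25 read-through transcripts and 15 small RNA genes. The genes just inside the minimum were INO80B-WBP1 at 5.00 CPM, MIR550A3HG at 5.04 and SNHG21 at 5.06. Those just outside it were NUTM2A-AS1 at 4.84, EIF3J-DT at 4.71 and RPL23P8 at 4.63.

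All cells were MCF10A JUN knockout cells that carried a JUN fusion protein with an auxin-inducible degron and the auxin receptor TIR1. The controls had no 4sU, and their labels do not say whether they received DMSO. The second group received DMSO before a pulse of 100 µM 4sU that lasted 1 h. If the controls had no DMSO, its effect cannot be told apart from that of 4sU. In the third group 100 µM indole-3-acetic acid (IAA), which triggers loss of the JUN fusion, was given 1 h ahead of the same pulse. Each group was labelled as 3 replicates, but the 3 IAA columns held the same values in all 56868 rows, so that IAA counts as 1 library with no replicate check. In this assay, SLAM-Seq, 4sU enters RNA made during the pulse and is read as C in place of T after alkylation with iodoacetamide. The T>C conversion rate is the share of T positions read as C in an interval at the 3′ end of a transcript, and CPM measures the total RNA of that interval.

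The library totals lay between 18997637 and 24014195 reads. Of 8 basal mammary markers, 8 were at 1 CPM or more (5.25 to 1869 CPM), as were 4 of 6 luminal markers (0.0142 to 82.7 CPM) and 2 of 4 fibroblast markers (0 to 5.32 CPM). The 3 leukocyte markers were at 0 and the 3 endothelial markers reached at most 0.401 CPM. The library without 4sU of replicate 1 stood apart in total RNA, with 22 of the 190 noncoding genes (11.6%) at least 1 log2 unit from the other 2 libraries of its group, against 0 to 8 in the other 5. It also stood apart over genes with an NM_ identifier at 5 CPM or more, with 6.04% against 0.0118% to 1.18%. The study describes its replicates as biological, and p-values measure the spread between these libraries.

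Small nucleolar RNAs guide the chemical modification of ribosomal and other RNAs, and most human ones are cut from introns. In an snoRNA host gene the exons left after splicing often code for no protein, and spliced GAS5 is known to be degraded by nonsense-mediated decay when its short reading frame is translated. Many host genes, like those of ribosomal proteins, start transcription at a C followed by a run of pyrimidines, the 5′ TOP motif. MicroRNA host genes are noncoding transcripts from which the microprocessor cuts microRNA hairpins. A high T>C rate after a short pulse means that much of a transcript's RNA was made during the pulse.

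In the RefSeq gene table, each of the 17 host genes held at least 1 snoRNA gene, 53 in all, with 11 inside GAS5, 9 inside SNHG1 and 4 inside SNHG12. They were counted on either strand, and genes of small Cajal body RNAs were included, such as SCARNA15, the only one inside SNHG21. To show how host genes with different T>C rates begin, the 30 bases around the annotated start are given here for 8 of them, from 10 bases before it. They were taken from RefSeq promoter sequences of GRCh38.p14 in the direction of transcription, and capitals mark the unbroken run of C and T from the first transcribed base.
SNHG12, chr1:28581854-28581883, minus strand: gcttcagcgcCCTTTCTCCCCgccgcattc
SNHG19, chr16:2155339-2155368, minus strand: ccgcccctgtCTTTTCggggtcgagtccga
SNHG5, chr6:85678714-85678743, minus strand: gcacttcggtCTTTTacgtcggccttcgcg
ZFAS1, chr20:49278632-49278661, plus strand: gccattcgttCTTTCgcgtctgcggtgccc
SNHG7, chr9:136728165-136728194, minus strand: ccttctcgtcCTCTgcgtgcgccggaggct
SNHG1, chr11:62855866-62855895, minus strand: gagattcgttCTCatttttctactgctcgt
SNHG3, chr1:28505933-28505962, plus strand: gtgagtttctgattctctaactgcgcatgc
GAS5, chr1:173869026-173869055, minus strand: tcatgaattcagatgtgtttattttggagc

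A C at the start followed by at least 4 letters that were each C or T, searched on the transcribed strand at this position only, was present in 4 of the 14 host genes with a window (SNHG12, SNHG19, SNHG5 and ZFAS1). The same letters were present in 4.04% of all 27305 windows, in 3 of 86 other noncoding genes and in 12 of 29 protein-coding snoRNA host genes. Other starts of a gene were not searched, so that the lack of these letters here does not show that a gene, such as GAS5, lacks the motif. These 4 host genes had T>C rates from 0.270% to 4.5%, from SNHG5 to SNHG12.

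The microRNA host genes with the highest T>C rates hold the mature microRNAs given next, from RefSeq records, with the seed (bases 2 to 8) in capitals. The microRNAs themselves were not measured, since the libraries read 3′ ends of polyadenylated RNA.
MIR17HG, hsa-miR-17-5p: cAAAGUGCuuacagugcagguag
MIR17HG, hsa-miR-20a-5p: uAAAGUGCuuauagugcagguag
MIR17HG, hsa-miR-18a-5p: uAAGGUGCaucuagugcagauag
MIR17HG, hsa-miR-19a-3p: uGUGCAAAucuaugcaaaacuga
MIR17HG, hsa-miR-19b-3p: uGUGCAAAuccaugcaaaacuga
MIR17HG, hsa-miR-92a-3p: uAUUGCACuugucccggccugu
MIR23AHG, hsa-miR-23a-3p: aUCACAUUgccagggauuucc
MIR23AHG, hsa-miR-27a-3p: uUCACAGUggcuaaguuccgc
MIR23AHG, hsa-miR-24-3p: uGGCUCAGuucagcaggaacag
MIR22HG, hsa-miR-22-3p: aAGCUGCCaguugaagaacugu

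Within MIR17HG, miR-17-5p and miR-20a-5p share a seed, as do miR-19a-3p and miR-19b-3p. The 3 arms shown for MIR23AHG have different seeds.

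To ask which noncoding RNAs were made during the pulse, the rates of the 3 libraries with DMSO and 4sU were compared with those of the 3 libraries without 4sU. The T>C rate was not used to choose the genes. In 112 of the 187 noncoding genes that passed the filter on low rates (59.9%), the rate was higher with 4sU. The test was limma on the log2 of the rate plus 0.0005, with a threshold of 0.05 on the p-value adjusted by Benjamini-Hochberg over all genes tested. The share over all 10850 genes tested was 60.1%, and over the 8412 genes with an NM_ identifier at the same CPM minimum it was 66.1%, so that the noncoding genes as a whole lay near the background. Of the snoRNA host genes, 16 of 17 rose (94.1%), against 96 of the other 170 noncoding genes tested (56.5%). Without pseudogenes, small RNAs and read-through transcripts, a restriction added after seeing the data, 58 of the other 84 rose. The host genes were also more abundant, with a median of 46.6 CPM without 4sU against 9.11 for these 84 genes. Whether host genes rose more often than other noncoding genes of equal CPM was not tested. A rate was lower with 4sU in 0.0369% of all genes, in 0.0119% of those with an NM_ identifier and in 1 noncoding gene (0.535% of all noncoding genes tested and 0.588% of those that were no snoRNA hosts). This was the pseudogene PIN4P1, named after its values were seen, with 0, 0.220% and 0.0816% against 0.261%, 0.260% and 0.458% without 4sU (adjusted p = 0.042). With a pseudocount of 0.0001, without the filter on low rates or without replicate 3, 0 noncoding genes were lower.

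The classes differed in their rates. The median of the mean rate with DMSO and 4sU was 1.18% for the 7 microRNA host genes, 0.712% for the antisense, divergent, intronic and overlapping transcripts and 0.618% for the snoRNA host genes. It was 0.360% for LINC genes, 0.318% for pseudogenes, 0.261% for other long noncoding RNAs, 0.212% for read-through transcripts and 0.109% for small RNA genes, against 0.217% for genes with an NM_ identifier at 5 CPM or more. The rate rose in 29 of 34 antisense, divergent, intronic or overlapping transcripts, 5 of 7 microRNA host genes, 17 of 27 other long noncoding RNAs, 7 of 16 LINC genes, 22 of 49 pseudogenes, 13 of 25 read-through transcripts and 3 of 12 small RNA genes tested. A mean rate of 1% or more was reached by 15 of the 34 antisense, divergent, intronic or overlapping transcripts and by 5 of the 17 snoRNA host genes (29.4%), against 5.32% of genes with an NM_ identifier. It was also reached by 4 of the 7 microRNA host genes, and by 24 of the 84 noncoding genes that were neither snoRNA hosts, pseudogenes, small RNAs nor read-through transcripts (28.6%), a share close to that of the hosts. Read-through transcripts are no separate measurement, since 22 of the 25 carried the reads of a row with an NM_ identifier to within 1%. The other 3 noncoding genes that did so were 2 pseudogenes and LOC100630923.

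**Figure D1:**
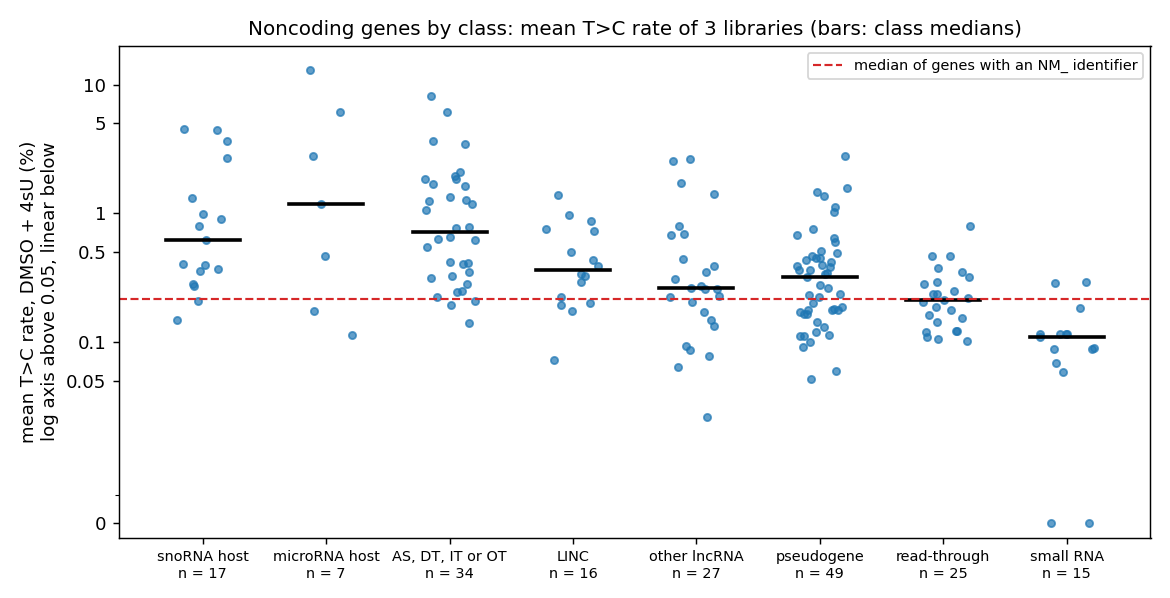
Mean T>C rate of the 3 libraries with DMSO and 4sU (y axis, percent, log scale above 0.05 and linear below) for each noncoding gene, by class; 1 gene is not shown. Black bars are class medians (0.618% for snoRNA host genes, 1.18% for microRNA host genes, 0.109% for small RNA genes) and the dashed line is the median of genes with an NM_ identifier (0.217%).

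The snoRNA host genes were compared with the other noncoding genes within each library, by the difference of their medians on the log2(rate + 0.0005) scale. Without 4sU the difference was -0.05, 0.03 and -0.05 in the 3 libraries. With DMSO and 4sU it was 1.12, 0.96 and 1.01 (mean 1.03 ± 0.08 SD, n = 3), and with IAA and 4sU it was 1.11. The labelled and unlabelled libraries did not overlap. The size depended on the genes set against the hosts. Without pseudogenes, small RNAs and read-through transcripts, which left 84 other genes, the difference with DMSO and 4sU was 0.64, 0.42 and 0.51 (mean 0.52 ± 0.12 SD), a comparison added after seeing the data.

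The host genes themselves ranged from a mean of 0.147% to one of 4.5%, and 4 of them stood above the others. SNHG12 (NR_024127) had a T>C rate of 4.56%, 4.66% and 4.28% in the 3 libraries with DMSO and 4sU, against 0.0528%, 0.0232% and 0.112% without 4sU. Its log2 difference was 5.41 (SE 0.42, adjusted p = 3.0e-09). SNHG3 (NR_002909), the host of SNORA73A and SNORA73B, had 7.07%, 2.23% and 3.95%, against 0.0788%, 0.0528% and 0.114%. The libraries of SNHG3 differed more among themselves than those of SNHG12, and its rate rose by 4.96 on the log2 scale (SE 0.45, adjusted p = 2.7e-08).

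SNHG1 (NR_003098), the U22 host gene, had 4.03%, 3.23% and 3.71% with 4sU, against 0.149%, 0.0907% and 0.0439% without (log2 difference 4.74, SE 0.34, adjusted p = 1.0e-09). SNHG15 had 3.64%, 2.29% and 2.08%, and was listed at 0 in all 3 libraries without 4sU, where it had 66 to 226 reads. No ratio is given for it. The libraries of SNHG3 overlapped those of SNHG12, SNHG1 and SNHG15, and SNHG1 overlapped SNHG15, whereas SNHG12 lay above all libraries of SNHG1. No library of SNHG15 reached down to the next gene, SNHG7, at 1.56%, 1.53% and 0.880%.

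In the GENCODE annotation of GRCh37 (hg19, the build named in the submitters' processing notes), 10 of the 17 host genes had an annotated last exon with exactly the length of the measured interval. For SNHG12 this exon was chr1:28905050-28905192 on the minus strand, and for SNHG1 chr11:62619460-62620153 on the minus strand. The SNHG3 exon, chr1:28835342-28837404 on the plus strand, also overlapped an exon of RCC1 on the same strand, so that reads of RCC1 transcripts there cannot be told apart from SNHG3.

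A middle group held GAS5, SNHG19, SNHG17 and SNHG25. GAS5 (NR_002578), whose last exon lies at chr1:173833039-173833213 on the minus strand, had 1.06%, 0.924% and 0.990% with 4sU, against 0.0437%, 0.0779% and 0.0541% without. Its 3 labelled libraries were close to each other (0.992% ± 0.069 SD), and the log2 difference was 3.27 (SE 0.25, adjusted p = 2.1e-09). SNHG19 had 0.809%, 0.651% and 1.26%, SNHG17 0.792%, 1.22% and 0.383%, and SNHG25, the host of SNORD104, 0.779%, 0.532% and 0.544%. The ranges of these 4 genes overlapped in part.

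The remaining host genes lay at 0.404% or less. ZFAS1 (NR_003604), the host of SNORD12, SNORD12B and SNORD12C, had 0.541%, 0.371% and 0.301%, against 0.0412%, 0.0409% and 0.0364% without 4sU (log2 difference 2.31, SE 0.19, adjusted p = 4.5e-09). The means of SNHG33, SNHG6, SNHG8, SNHG16 and SNHG5 fell from 0.393% to 0.270% in that order, and the ranges of neighbours overlapped. SNHG5 had 0.289%, 0.271% and 0.25%, with its last exon at chr6:86386725-86386909 on the minus strand.

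SNHG29 (NR_027158), the most abundant host gene, had the lowest rate, with 0.185%, 0.109% and 0.146% against 0.0515%, 0.0731% and 0.0762% without 4sU. The difference of 0.74 (SE 0.15, adjusted p = 0.00036) was the smallest among the host genes that passed the test. It was not called with the variance trend on the mean rate (adjusted p = 0.0502), and was 3.40 with the rate averaged over its 3 intervals. SNHG21 was the 1 host gene that did not pass (adjusted p = 0.87). Its rate was 0.619%, 0 and 0 with 4sU, from 77 to 95 reads per library. SNHG33 passed (adjusted p = 0.036) but was not called without replicate 2 (adjusted p = 0.14) or without replicate 3 (adjusted p = 0.18).

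**Figure D2:**
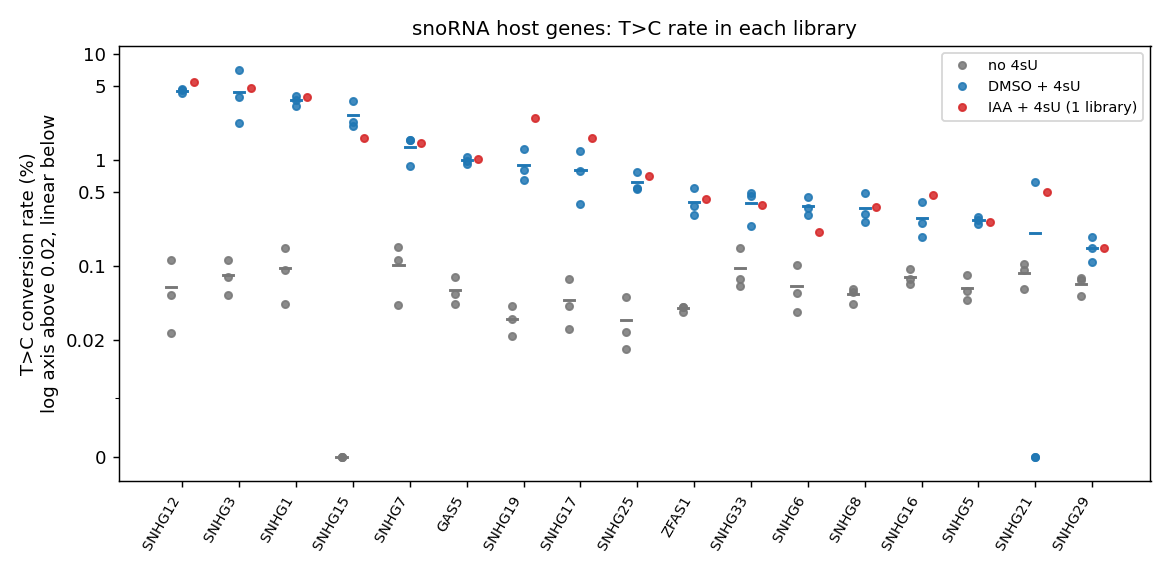
T>C rate (y axis, percent, log scale above 0.02 and linear below) of the 17 snoRNA host genes in each library without 4sU (grey), with DMSO and 4sU (blue) and with IAA and 4sU (red, 1 library); bars are means of 3 libraries. Genes are ordered by the mean with DMSO and 4sU, from SNHG12 at 4.5% to SNHG29 at 0.147%.

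Across the 17 host genes the T>C rate went with neither the number of snoRNA genes inside (Spearman's rho 0.27) nor the interval length (rho -0.08), and weakly with the CPM without 4sU (rho -0.41). These correlations are across genes measured in the same libraries and are given as descriptions. The intervals of host genes were short, with a median of 295 bases against 1456 for the other noncoding genes.

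Protein-coding genes can also carry snoRNAs in their introns. Of a list of 40 such genes, most of them coding for ribosomal proteins and translation factors, 33 of 39 tested had a higher rate with 4sU and none had a lower one. Their median rate was 0.136%, below the 0.618% of the noncoding hosts, and 1 of the 40 reached 1%, NOP56, a core protein of box C/D snoRNPs, at 1.12%. Of 8 core proteins of snoRNPs, NOP56 among them, 7 rose, with a median rate of 0.220%. The other, NOP10 of the box H/ACA class, had a mean of 1.29% with and 1.06% without 4sU (adjusted p = 0.31). Of 10 factors of nonsense-mediated decay, 7 of 9 tested rose, with a median rate of 0.405% and SMG9 as the highest at 1.5% (± 1.17 SD). These lists were not held to the minimum of 5 CPM. SMG9 had 1.94 CPM without 4sU, and UPF3A and SMG6 also lay below the minimum.

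Among the microRNA host genes, MIR17HG, the host of the miR-17-92 cluster, had the highest rate of all noncoding genes, with 17.2%, 12.5% and 9.60% against 0.0901%, 0 and 0.290% without 4sU (log2 difference 6.58, SE 0.90, adjusted p = 6.0e-06). Few reads lay behind these values, 37, 8 and 13 in the labelled libraries. MIR23AHG had 5.50%, 5.70% and 7.26% from 24 to 58 reads (log2 difference 6.34, SE 0.80, adjusted p = 2.2e-06). MIR22HG was measured more precisely, with 815 to 888 reads, at 2.87%, 2.76% and 2.74% against 0.0287%, 0.0325% and 0.0661% (log2 difference 4.96, SE 0.29, adjusted p = 2.2e-11). MIR4435-2HG lay at the other end with 0.190%, 0.191% and 0.143%, and did not pass the test (adjusted p = 0.059).

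Some intronic transcripts had rates as high. RUNX1-IT1 had 4.10%, 12.7% and 7.78% against 0.141%, 0 and 0 without 4sU, from 19 to 30 labelled reads (log2 difference 6.58, SE 0.90, adjusted p = 6.0e-06). NPTN-IT1 had 8.72%, 8.99% and 0.833% from 17, 9 and 12 reads, and SPRY4-IT1 4.87%, 4.89% and 1.24% from 35, 18 and 12 reads. Both passed the test, with adjusted p = 0.00014 and 5.5e-05. SND1-IT1 had 3.90%, 0 and 6.43% from 19, 3 and 10 reads and did not pass (adjusted p = 0.063), but was called without replicate 2 (adjusted p = 0.0035), with a pseudocount of 0.002 (adjusted p = 0.047) and with the replicate block (adjusted p = 0.013). NPTN-IT1 and SND1-IT1 lie inside NPTN and SND1 on the same strand, so that these reads cannot be told apart from unspliced RNA of the surrounding gene. RUNX1-IT1 and SPRY4-IT1 were not found in the GENCODE annotation. Their positions were therefore not checked, and the same limit may hold for them.

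Of the long noncoding RNAs with a name of their own, KCNQ1OT1, which is transcribed antisense to KCNQ1 at an imprinted locus, had 2.59%, 2.75% and 2.60% against 0.264%, 0.156% and 0.117% (log2 difference 3.61, SE 0.40, adjusted p = 4.7e-07). Its interval spanned 91671 bases, the full-length transcript rather than a 3′ end. HEIH had 3.21%, 2.41% and 1.99%. NEAT1, the scaffold of paraspeckles, had 0.924%, 0.494% and 0.640% in an interval of 22741 bases, against 0.0713%, 0.0783% and 0.0703% without 4sU (log2 difference 2.54, SE 0.18, adjusted p = 1.0e-09). Averaged over its 2 intervals, the difference was 4.46.

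MALAT1, a nuclear RNA of speckles and the most abundant noncoding gene with a mean of 11779 CPM without 4sU, had 0.245%, 0.220% and 0.201% against 0.0552%, 0.0519% and 0.0483%. The labelled libraries of NEAT1 all lay above those of MALAT1. NORAD, a cytoplasmic RNA that binds Pumilio proteins, had 0.251%, 0.190% and 0.177%, close to MALAT1 and overlapping it. DANCR, which holds SNORA26, had 0.426%, 0.498% and 0.398%, CYTOR 0.246%, 0.376% and 0.147%, and EPB41L4A-AS1, which holds SNORA13, 0.374%, 0.294% and 0.274%. OIP5-AS1 had 0.136%, 0.445% and 0.146%. All of these passed the test. PVT1 had 0.593%, 0.172% and 0.155% and did not (adjusted p = 0.066).

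The pseudogene RP9P had 2.44%, 3.19% and 2.69% against 0.0631%, 0.0457% and 0 without 4sU (log2 difference 5.10, SE 0.66, adjusted p = 2.9e-06). The read-through SENP3-EIF4A1, which carries the reads of a row with an NM_ identifier, had 0.501%, 0.318% and 0.313%.

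Among the genes with the lowest mean rates, MIR6797 and MIR6805 were listed at 0 in all libraries, without 4sU as well, so that these values do not measure labelling. LOC100506730 (0.0372%), CCZ1P-OR7E38P (0.0511%), MIR4709 (0.0584%) and RPL31P11 (0.0599%) did not pass the test. MIR1244-1 to MIR1244-4, which share 1 interval, had 0.102%, 0.117% and 0.129% against 0.101%, 0.0793% and 0.125% without 4sU. Intervals of small RNA genes can lie in exons of other genes, as those of MIR4647 in SLC35B2, MIR4709 in NPC2 and SNORA81 in EIF4A2 do on the same strand. Reads of both cannot be told apart there.

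In 7 pseudogenes, looked up after the values were seen, the mean rate without 4sU was already 0.3% or more, up to 1.61% in IGBP1P1, 1.31% in RPL13AP20 and 0.819% in TFAMP1, where it was 1.35%, 1.11% and 0.680% with 4sU. Reads of pseudogenes may be shared with the parent gene, so that these rates are uncertain. A high rate without 4sU was not limited to pseudogenes, as the protein-coding gene NOP10 had 1.06%. The share of all genes at 0.3% or more without 4sU is not given here.

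The total RNA of the same libraries is given as a description, because CPM without 4sU chose the genes. Of all 11385 genes tested, 1.62% had less total RNA with DMSO and 4sU (limma on log2(CPM + 1)), and of those with an NM_ identifier 1.38%. Of the 190 noncoding genes, 20 did (10.5%), of them 3 of the 17 host genes (17.6%) and 17 of the other 173 (9.83%). By limma, edgeR and DESeq2 0 noncoding genes had more total RNA, and at an unadjusted p under 0.05 the numbers were 5, 6 and 7. Of the 162 noncoding genes chosen by a mean of 5 CPM or more with DMSO and 4sU in place of without, 7 had less. The count of 20 also depended on single replicate numbers, with 32 without replicate 1 and 7 each without replicate 2 or 3. As CPM is a share of the reads of a library, it does not measure the amount of RNA per cell.

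SNHG12 had 39.3, 30.6 and 23.8 CPM without 4sU and 7.61, 7.62 and 5.87 CPM with DMSO and 4sU, which is 4.44-fold lower. SNHG3 had 36.4, 28.2 and 23.0 CPM against 8.03, 9.58 and 10.6 (3.10-fold lower), and SNHG1 had 48.8, 50.7 and 40.3 CPM against 22, 14.7 and 16.2 (2.64-fold lower). In none of these 3 genes did the groups overlap. All libraries with DMSO and 4sU lay below all unlabelled ones in 7 of the 17 host genes (41.2%). The same held for 42 of the 190 noncoding genes (22.1%) and for 7.75% of genes with an NM_ identifier. GAS5 had 95.7, 51.9 and 41.1 CPM against 60.3, 58.0 and 46.9, with overlap, and ZFAS1 214, 176 and 182 CPM against 197, 180 and 184. SNHG29 went the other way, with 293, 378 and 375 CPM against 526, 460 and 474, also without overlap. SNHG15 had 11.2 CPM in the library without 4sU of replicate 1 and 3.26 and 3.47 in the other 2, so that the library that stood apart was by far the highest.

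**Figure D3:**
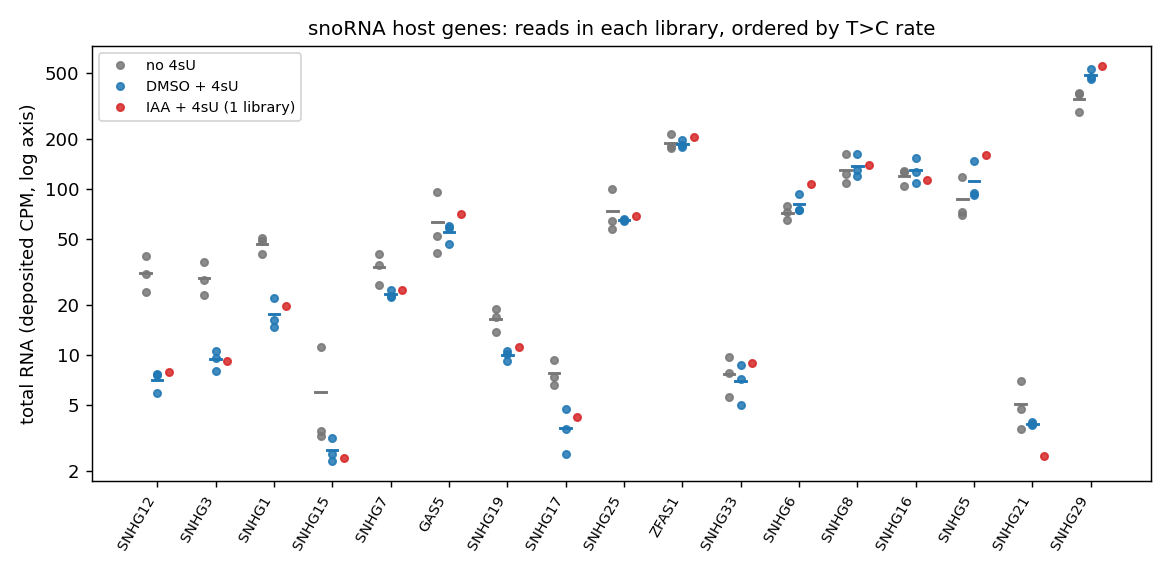
Total RNA (y axis, deposited CPM, log scale) of the 17 snoRNA host genes in each library, in the order of their T>C rate; grey without 4sU, blue DMSO and 4sU, red IAA and 4sU (1 library), bars are means of 3 libraries. SNHG12, SNHG3 and SNHG1 at the left lie lower in all labelled libraries, whereas the libraries of ZFAS1 and SNHG8 overlap.

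Outside the host genes, the lowest values relative to the unlabelled libraries were those of SND1-IT1, with 11, 10.6 and 12.5 CPM against 0.893, 0.125 and 0.498, and LINC01004, with 13.1, 13.9 and 20.4 CPM against 1.88, 0.999 and 0.747. MIR17HG had 7.42, 5.90 and 5.37 CPM against 1.74, 0.333 and 0.647, and KCNQ1OT1 32.8, 34.2 and 30 CPM against 9.02, 7.87 and 6.77. In all 4, which were picked as being among the largest falls, the groups did not overlap. MIR22HG, whose rate was 2.79%, had 45.5, 52.6 and 41.2 CPM against 38.3, 37 and 40.9. The highest log2 difference was that of RNU4ATAC, a spliceosomal RNA of the minor class, with 72.9, 157 and 290 CPM against 661, 220 and 421, where the groups overlapped.

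Among the noncoding genes, chosen by CPM in the unlabelled libraries, those with a high T>C rate mostly had less total RNA in the labelled libraries. This choice keeps genes that are low only in the labelled libraries and drops genes that are low only in the unlabelled ones, so it favours falls. Of the 35 with a mean rate of 1% or more, 33 had a negative log2 difference (median -0.78) and 16 were at least 1 log2 unit lower. Of the 155 below 1%, 74 had a negative difference (median 0.01) and 2 were at least 1 log2 unit lower. Genes with an NM_ identifier were split in the same way. Of the 450 at 1% or more, 86.7% had a negative difference (median -0.55) and 22.9% were at least 1 log2 unit lower. Of the 8010 below it, 39.1% had a negative difference (median 0.06) and 0.150% were at least 1 log2 unit lower. Spearman's rho between the rate and the difference was -0.56 over all 190 noncoding genes and -0.85 over the 17 host genes. These correlations are descriptions across genes, and both measures came from the same labelled libraries. The split and the correlations were not repeated for genes chosen by CPM in the labelled libraries, of which fewer had less total RNA. How far the choice of genes accounts for the split and the correlations was not tested.

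**Figure D4:**
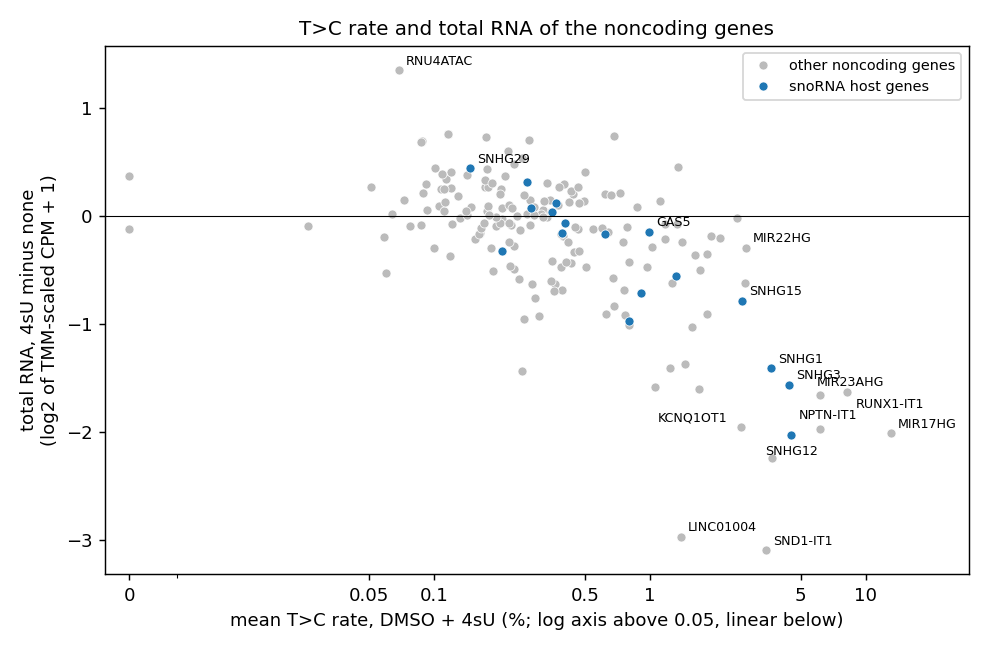
Mean T>C rate with DMSO and 4sU (x axis, percent, log scale above 0.05 and linear below) against the log2 difference in total RNA, 4sU minus none (y axis), for the noncoding genes, with snoRNA host genes in blue; 1 gene is not shown. The genes were chosen by CPM without 4sU. Genes at 1% or more lie mostly below 0 (33 of 35), down to -3.09 for SND1-IT1, and those below 1% lie around 0 (median 0.01). Of genes with an NM_ identifier at 1% or more, not shown, 86.7% lie below 0.

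To see whether loss of the JUN fusion was accompanied by another rate of noncoding RNAs, the IAA library was set against the 3 libraries with DMSO and 4sU, each centred on its median log2 rate. A gene was counted when it lay at least 1 log2 unit from the DMSO mean and outside the DMSO range. In the T>C rate this held for 37 of 188 noncoding genes (19.7%), 18 higher and 19 lower, against 20.7% of all genes tested and 13.0% of those with an NM_ identifier at 5 CPM or more. Each DMSO library in turn, set against the other 2 and IAA, gave 43, 46 and 39 noncoding genes. The number for IAA was lower than each of these. The median difference over the noncoding genes was -0.003 on the log2 scale.

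Among the host genes, 1 of 17 passed this rule (5.88%). SNHG19 had 2.52% with IAA, above 0.809%, 0.651% and 1.26% with DMSO (centred log2 difference 1.31), from 223 reads. SNHG12 was at 5.45% with IAA, GAS5 at 1.02%, ZFAS1 at 0.429% and SNHG29 at 0.149%, and after centring these 4 lay within their DMSO ranges. The median centred difference of the host genes was -0.04. Spearman's rho between the mean DMSO rate and the IAA rate was 0.89 over the 17 host genes, which were measured in the same libraries.

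NEAT1 had 1.52% in the IAA library against 0.924%, 0.494% and 0.640%, above its DMSO range but under 1 log2 unit (centred log2 difference 0.97). MALAT1 was at 0.232%, inside its DMSO range of 0.201% to 0.245%. MIR17HG was at 11.4% and MIR22HG at 2.55%, with centred log2 differences of -0.32 and -0.29.

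Few reads lay behind the largest differences, from 53 to 190 in the IAA library. They were those of CTC-338M12.4, at 2.20% with IAA against 0, 0.240% and 0.530%, of ZNF204P, LINC00467, LINC01116 and LINC00641, each listed at 0 with IAA, and of H3P6, at 0.933% against 0.152%, 0.0549% and 0.151%. Of the 63 noncoding genes with a mean of 20 CPM or more without 4sU, 2 passed the rule. The share of all genes at this minimum is not given here, so that this count has no background.

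In total RNA, 0 of 187 noncoding genes passed the same rule with IAA, against 0.133% of all genes and 0.106% of those with an NM_ identifier, and 1, 3 and 0 did for the 3 DMSO libraries. SNHG12 was at 7.88 CPM with IAA, against 7.61, 7.62 and 5.87 with DMSO, and SNHG29 at 555 CPM, against 526, 460 and 474. NEAT1 was at 146 CPM, within its DMSO range of 139 to 189. With 1 IAA library, none of these comparisons has a test.

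**Figure D5:**
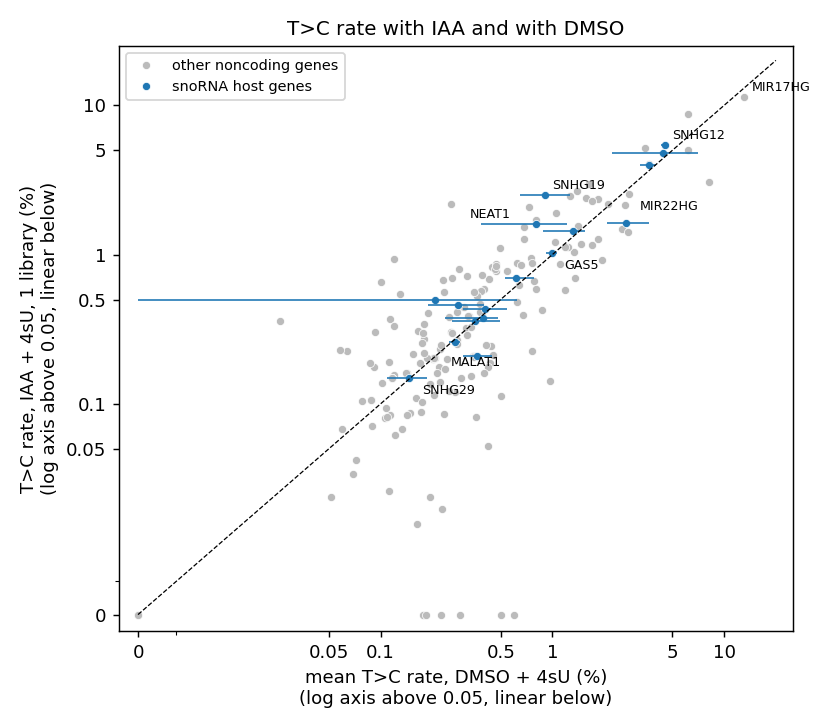
T>C rate of the IAA library (y axis) against the mean of the 3 libraries with DMSO and 4sU (x axis), both in percent on a log scale above 0.05 and linear below, for the noncoding genes; 1 gene is not shown. Blue points are snoRNA host genes with the range of the DMSO libraries as a line, and the dashed line marks equal rates. SNHG19 lies above its DMSO range (2.52% against at most 1.26%).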

How the data were processed

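The authors alkylated RNA, made QuantSeq 3′ FWD libraries and ran the nf-core slamseq pipeline. The deposited table lists 3′ intervals by RefSeq identifier, with the T>C rate as a fraction and reads scaled to library size, a signal named CPM. The build in the submitters' processing notes was hg19. All CPM (100% of non-zero values, within 0.01 reads) were whole multiples of 1 read, which gave the read counts, and 0 per-sample columns were left unused. Coverage of T positions was not used here, so that the counting error of a rate is unknown. Identifiers were matched through a RefSeq table of GRCh38.p14 (97.7% of rows). The interval with most CPM stood for a gene, and 31 noncoding genes had more than 1. The hg19 positions come from GENCODE (GRCh37), where 151 of the 190 genes were found.

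In R 4.3.3, limma 3.58.1 tested the log2 of the rate plus 0.0005 where 3 or more of 6 libraries had a non-zero rate, with robust variances and a trend on the log2 of the mean reads. Total RNA was tested with limma on log2(CPM + 1) after TMM scaling, for genes at 1 CPM or more on average, with DESeq2 (1.42.0) and edgeR (4.0.16) on recovered reads as alternatives. In simulated data the rate fit recovered 85% of 200 genes changed 9-fold among 9759, with 4 false calls of 174. A trend on the mean rate gave 73 false calls of 218 and was used as an alternative only. The trend on the mean reads was chosen after this simulation. Its rates were binomial draws at an assumed number of T positions per read, without added spread between libraries. The numbers of false calls therefore hold for that setting and do not carry over to the real libraries. Replicate numbers paired the libraries in total RNA, where the deviations of same-numbered libraries from their group means correlated at 0.393, 0.319 and 0.378 over 11385 genes. The genes and lists were chosen with earlier results of these data known. Named were all snoRNA hosts, the members of a list of well-known noncoding RNAs, and the extremes in rate, CPM and difference. Among these genes, 1 is counted but left out by name. Python 3.11.15 with pandas 2.3.3, numpy 2.4.6, scipy 1.17.1 and matplotlib 3.10.9 was used.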

Additional observations from a re-analysis of the deposited data

How the results depend on the processing

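The number of noncoding genes with a higher T>C rate was 93 to 114 under the other pseudocounts, without the filter on low rates, with mean rates over intervals, with the replicate block, with the trend on the mean rate and without a replicate. With at least 200 reads per library it was 76 of 107, against 5080 of 7001 over all genes. It was 74 of 101 without pseudogenes, small RNAs and read-through transcripts and 204 of 332 with unmatched identifiers included, both added after seeing the data. With the replicate block it was 114 (6569 over all genes), although the numbers did not pair the libraries in the rates (correlations 0.011, -0.0079 and -0.032). In total RNA the block gave 24 noncoding genes and 239 of all genes, no change of over 1.5 times. Genes with changed total RNA numbered 390 by DESeq2, 387 of them lower, against 185. Leaving out replicate 1, 2 or 3 gave 446, 32 and 36 of all genes and 32, 7 and 7 noncoding genes, and choosing noncoding genes by CPM with DMSO and 4sU gave 7. The cause was not tested. The excess of host genes over the other noncoding genes, 1.03, was 1.31 after subtraction of the rate without 4sU, 1.14 with a pseudocount of 0.0001, 0.85 with DANCR and EPB41L4A-AS1 as hosts, 1.19 with mean rates over intervals, 0.80 without pseudogenes and small RNAs, 0.52 without read-through transcripts as well and 0.67 with hosts defined by an annotated snoRNA gene. The excess was 0.99 to 1.07 without a DMSO replicate. The 24 hosts defined by an annotated snoRNA gene, counted on either strand, included read-through transcripts such as SENP3-EIF4A1. The median IAA difference in rate was 0.16 without centring and -0.11 without pseudogenes, small RNAs and read-through transcripts. The number past the rule in rate was 2 at 20 CPM or more, 14 with at least 200 reads and 18 without those classes. Fewer genes were tested there, and the shares of all genes under these settings are not given, so that these counts have no background. In total RNA the median IAA difference was 0.047 without TMM scaling and 0.0068 without those classes, and the number past the rule was 1 with a pseudocount of 0.25 and 0 to 5 without a DMSO replicate. Over the alternatives for rates of named genes, 491 values kept their side of the threshold, 17 lost it, among them SNHG33, SNHG29, RNU4ATAC and ZNF204P, and 9 gained it, among them SND1-IT1. Depth limits genes with few reads, such as MIR17HG with 8 to 37 reads in the DMSO libraries.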
